A study of Mus musculus with 12 samples.

Results

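The Toll-like receptors are the membrane proteins with which macrophages recognise microbial molecules and products of damaged cells. The genes described here are the 10 receptors Tlr1, Tlr2, Tlr3, Tlr4, Tlr5, Tlr6, Tlr7, Tlr8, Tlr9 and Tlr13, chosen by name from the 36439 genes of the count tables. The annotation holds 12 Toll-like receptor genes, and the remaining pair, Tlr11 and Tlr12, is given for comparison. RNA was sequenced from macrophages that had entered solid tumours (tumour-associated macrophages, TAMs). The tumours were subcutaneous Lewis lung carcinomas, a transplantable mouse cancer, in hosts of the C57BL/6 strain. There were 12 libraries, 3 in each of 4 groups. MRC1+ TAMs were sorted on F4/80, a surface protein of mouse macrophages, and on the mannose receptor MRC1. CD11c+ TAMs were sorted on F4/80 and the integrin CD11c. The other two groups were F4/80+ TAMs overexpressing miR-511-3p, a microRNA, or a mutated form of it (miR-511-3p-mut), and carry the prefix SFFV in their titles, which the labels do not spell out. All groups share the tumour and the strain, and no genotype, age or other agent is given in the labels. The labels do not say whether the replicates came from separate mice, so p-values measure the spread between these samples, which may be technical.

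Tlr1, Tlr2, Tlr4, Tlr5 and Tlr6 encode receptors of the cell surface. Tlr2 pairs with Tlr1 or Tlr6 to bind bacterial lipopeptides, Tlr4 binds lipopolysaccharide and Tlr5 binds flagellin. Tlr3, Tlr7, Tlr8, Tlr9 and Tlr13 encode receptors of the endosome that read nucleic acids: double-stranded RNA, single-stranded RNA, unmethylated CpG DNA and bacterial ribosomal RNA are their known ligands. The endosomal receptors need the chaperone Unc93b1 to leave the endoplasmic reticulum, and all of these receptors except Tlr3 can signal through the adaptor Myd88.

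The sequences below bear on how the values can be read. Mature mouse miR-511-3p is shown because it is the molecule overexpressed, with its seed, bases 2 to 8, in capitals (RefSeq, GRCm38.p6, chr2:14261051-14261072, plus strand).
mmu-miR-511-3p: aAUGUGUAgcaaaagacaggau
Of the 10 receptors only Tlr4 had a match to this seed in its longest annotated 3′ UTR. The match starts at base 1056 of 1324, pairs with bases 2 to 8 of the microRNA and is shown in capitals within its flanks (GENCODE M21 transcript).
Tlr4 site: gttgggagTACACATttctgct
A match of the same kinds was present in 20.7% of the 11923 tested genes with a 3′ UTR, so 1 of 10 is not above that share. Tlr1 and Tlr6, which lie on chromosome 5, share a coding run of 229 identical bases, the longest between any pair of the receptors. It is shown because a read inside it cannot be assigned to either gene.
Tlr1 and Tlr6: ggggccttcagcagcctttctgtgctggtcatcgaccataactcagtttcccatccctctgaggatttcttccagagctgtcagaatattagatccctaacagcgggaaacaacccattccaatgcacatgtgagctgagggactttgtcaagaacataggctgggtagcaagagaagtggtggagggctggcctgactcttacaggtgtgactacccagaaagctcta
In total 558 stretches of 36 bases occur in both transcripts, 18.7% of those of Tlr1 and 15.4% of those of Tlr6, and no other receptor shared such a stretch with another. Counts of Tlr1 and Tlr6 are therefore uncertain, and a part of their reads may have been left uncounted. Promoter windows, from 250 bases before to 50 after the start, were present for 8 of the 10 receptors. None was present for Tlr4 or for Tlr7, which passed the test below. The window of Tlr9 is shown because Tlr9 also passed that test (GRCm38.p6, chr9:106222348-106222647, plus strand).
Tlr9 promoter: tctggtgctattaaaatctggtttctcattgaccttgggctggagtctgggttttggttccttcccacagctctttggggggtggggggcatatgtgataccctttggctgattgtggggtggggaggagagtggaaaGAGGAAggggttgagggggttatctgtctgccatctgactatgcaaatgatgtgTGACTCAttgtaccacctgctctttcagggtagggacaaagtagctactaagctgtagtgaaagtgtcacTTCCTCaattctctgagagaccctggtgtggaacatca
Capitals mark matches on either strand to GAGGAA, the core letters bound by PU.1, which 28.3% of the 32851 windows of this length hold, and to TGANTCA, the AP-1 letters, which 7.81% hold. The AP-1 letters read the same on both strands, so the window has 1 such place, and the PU.1 letters occur at 2. No match was found in it to the interferon response element letters GAAANNGAA, the C/EBP letters TTGCNNAA or the Sp1 letters GGGCGG. The TATA box letters TATAAA were not in it either.

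Each library held between 10824918 and 27890433 reads assigned to genes, and the 10 receptors together took 15742 to 53241 of them. The lowest count of a receptor in a library was 141 reads, for Tlr5, and all 10 passed the filter on low counts in both comparisons. Mrc1 and Itgax followed their labels. Mrc1 was 2.34-fold higher in MRC1+ TAMs (adjusted p = 0.000538, edgeR) and Itgax, the CD11c gene, fell by 3.28 on the log2 scale (adjusted p = 4.53e-05, edgeR). All 9 macrophage markers were detected in every group and summed to 5569 to 6444 CPM (reads per 1000000 counted to genes, with TMM scaling) in the MRC1+ and 4446 to 5737 CPM in the CD11c+ libraries, with 2 of 9 higher in MRC1+ TAMs. One was Adgre1, the F4/80 gene of the gate that both populations share, at 1064 against 614 CPM. It was 1.74-fold higher (adjusted p = 0.00733, edgeR) and moved the same way as Tlr7. None of the 9 was called lower. Csf1r went the other way without overlap, at 903 against 1083.5 CPM, but was not called (adjusted p = 0.154, edgeR). Fcgr1 also had a lower mean in MRC1+ TAMs, at 196 against 255 CPM, with overlap. Markers of type 2 and general dendritic cells summed to 41.0 to 42.1 CPM in the MRC1+ and 320 to 577 in the CD11c+ libraries, with 7 of 7 lower in MRC1+ TAMs. Monocyte markers summed to 594 to 773 against 2086 to 2820 CPM, with 7 of 8 lower, and type 1 dendritic cell markers to 241 to 284 against 450 to 479, with 4 of 6 lower. None of these dendritic cell and monocyte markers was at 0 in either group. Epithelial and carcinoma markers summed to 143.5 to 209 against 118 to 170 CPM, with 4 of 6 tested higher, 2 lower and Cldn6 at 0 in MRC1+ TAMs. Endothelial markers summed to 29.5 to 39.8 against 78.0 to 119 CPM, with 1 of 4 tested higher, 2 lower and none at 0. These marker lists and Adgre1 move with the sorted comparison, and their part in the receptor differences was not tested. In bulk samples fewer cells of a type and less RNA per cell cannot be told apart. Fibroblast markers summed to 619 to 875 CPM in the MRC1+ and 275 to 1170 CPM in the CD11c+ libraries, with 0 of 9 called. The first CD11c+ library stood apart within its group, at 1170 CPM against 275 and 335 in the others.

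In MRC1+ against CD11c+ TAMs, Tlr7 was 1.496-fold higher and Tlr9 fell to 0.543 of its level. Tlr2 was lower in every MRC1+ library but did not pass in the main fit, which ignores replicate numbers (adjusted p = 0.0538, edgeR). With a replicate block Tlr2 passed (adjusted p = 0.0145, edgeR). Tlr7 and Tlr9 are thus the 2 of 10 receptors called in the main fit, by the quasi-likelihood test of edgeR. Calls used Benjamini-Hochberg adjustment over all genes at 0.05. They stand beside 16.6% of all 15622 genes tested, or 6.91% higher and 9.71% lower. The receptors' share is thus near the background. The 1080 higher and 1517 lower genes of this background became 1348 and 1325 with upper-quartile scaling and 1636 and 1110 with library totals alone. Libraries did not overlap for 3 of the 10, Tlr2, Tlr7 and Tlr9, beside 38.4% of all genes, or 18.5% higher and 19.9% lower. With DESeq2, with no filter, in a fit of all 12 libraries and with a replicate block, Tlr2 joined Tlr9 as lower, beside 10.3%, 6.28%, 12.1% and 10.6% of genes lower in those fits. The receptors' median log2 fold change was -0.14 against 0.01 for all genes. The plots of the receptors by library and of their changes show these differences.

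**Figure D1:**
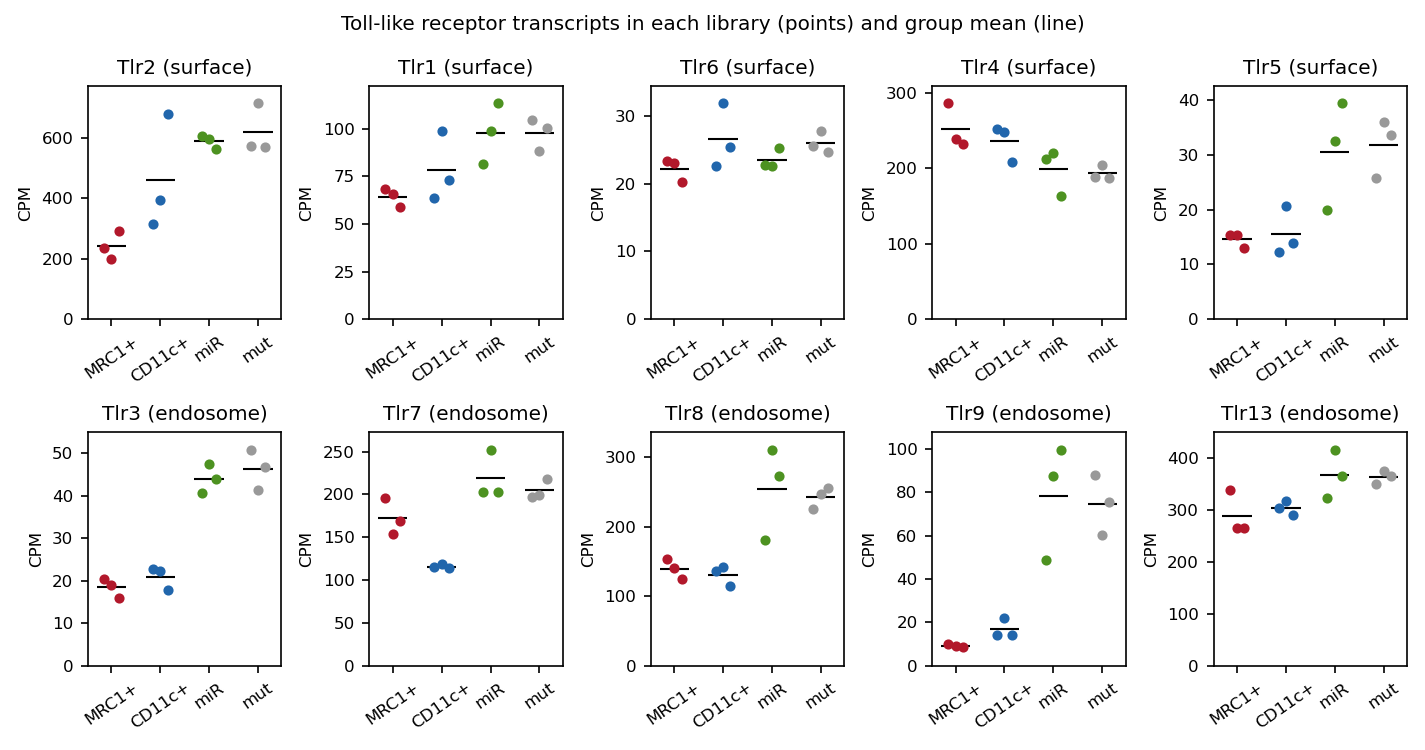
Each panel plots 1 receptor transcript as CPM (y axis from 0) in the 3 libraries of each group (points; miR and mut are the overexpression groups), with the group mean as a line. Tlr7 lies at 153 to 196 CPM in MRC1+ and 114 to 118 CPM in CD11c+ TAMs, and the overexpression groups overlap in every panel.

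Tlr7, the endosomal receptor of single-stranded RNA, stood at 195.8, 153.3 and 168.4 CPM in the MRC1+ and at 114.9, 118.1 and 113.5 CPM in the CD11c+ libraries. All MRC1+ libraries lay above all CD11c+ libraries, which differed little among themselves. The log2 fold change was 0.58 ± 0.10 (SE, n = 3 per group; adjusted p = 0.00785, edgeR), a 1.496-fold higher level with a 95% interval of 1.27 to 1.77. It remained past the threshold in each of 13 alternatives, with adjusted p from 0.000193 to 0.0335 (edgeR and DESeq2).

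Tlr9, the endosomal receptor of CpG DNA, stood at 9.85, 9.08 and 8.43 CPM in the MRC1+ and at 14.1, 22.1 and 13.98 CPM in the CD11c+ libraries. The groups did not overlap, and the second CD11c+ library was the highest. Tlr9 fell by 0.88 on the log2 scale (SE 0.20, n = 3 per group; adjusted p = 0.0191, edgeR), with a 95% interval of -1.33 to -0.43. The call was lost without any 1 of the MRC1+ libraries, with adjusted p of 0.0506, 0.0659 and 0.0738 (edgeR). Tlr9 is abundant in plasmacytoid dendritic cells and B cells as well as in myeloid cells. Plasmacytoid markers summed to 12.3 to 15.99 CPM in MRC1+ and 16.5 to 22.7 CPM in CD11c+ TAMs, with 1 of 4 tested lower, and Siglech, which defines these cells, was at most 0.756 and 1.18 CPM. Runx2 made up most of these sums, with means of 12.2 CPM in MRC1+ and 14.3 CPM in CD11c+ TAMs. None of the 8 was at 0. B cell markers summed to 6.66 to 7.12 and 6.04 to 7.09 CPM, with 0 of 3 tested called and none at 0. The part of these cells in the Tlr9 difference was not tested.

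Tlr7 and Tlr9 thus moved in opposite directions. Per kb of exon, the scale on which different genes can be set side by side, the ratio of Tlr7 to Tlr9 was 16.9, 14.4 and 17.0 in the MRC1+ and 6.92, 4.55 and 6.92 in the CD11c+ libraries. This ratio is built from both differences above and is not a separate result. The ratio of Tlr7 to Tlr8, which both read single-stranded RNA, was 1.12, 0.963 and 1.18 in MRC1+ TAMs. It was 0.743, 0.731 and 0.870 in CD11c+ TAMs, without overlap. This second ratio holds the Tlr7 difference again and is not a separate result either.

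The 3 other endosomal receptors gave no call. Tlr8 stood at 154.0, 139.7 and 125.1 CPM in the MRC1+ and at 135.7, 142.0 and 114.6 CPM in the CD11c+ libraries, with a log2 fold change of 0.10 ± 0.11 (adjusted p = 0.602, edgeR). Tlr13, which reads bacterial ribosomal RNA in mice, stood at 338.0, 265.2 and 264.7 against 303.5, 317.2 and 291.3 CPM, a log2 fold change of -0.07 ± 0.12 (adjusted p = 0.719, edgeR). Tlr3, the receptor of double-stranded RNA, stood at 20.4, 19.0 and 15.9 against 22.7, 22.2 and 17.7 CPM, a log2 fold change of -0.18 ± 0.14 (adjusted p = 0.392, edgeR). The groups overlapped for all 3. The 95% intervals were -0.17 to 0.36 for Tlr8, -0.34 to 0.20 for Tlr13 and -0.50 to 0.13 for Tlr3, and changes within these bounds remain possible.

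**Figure D2:**
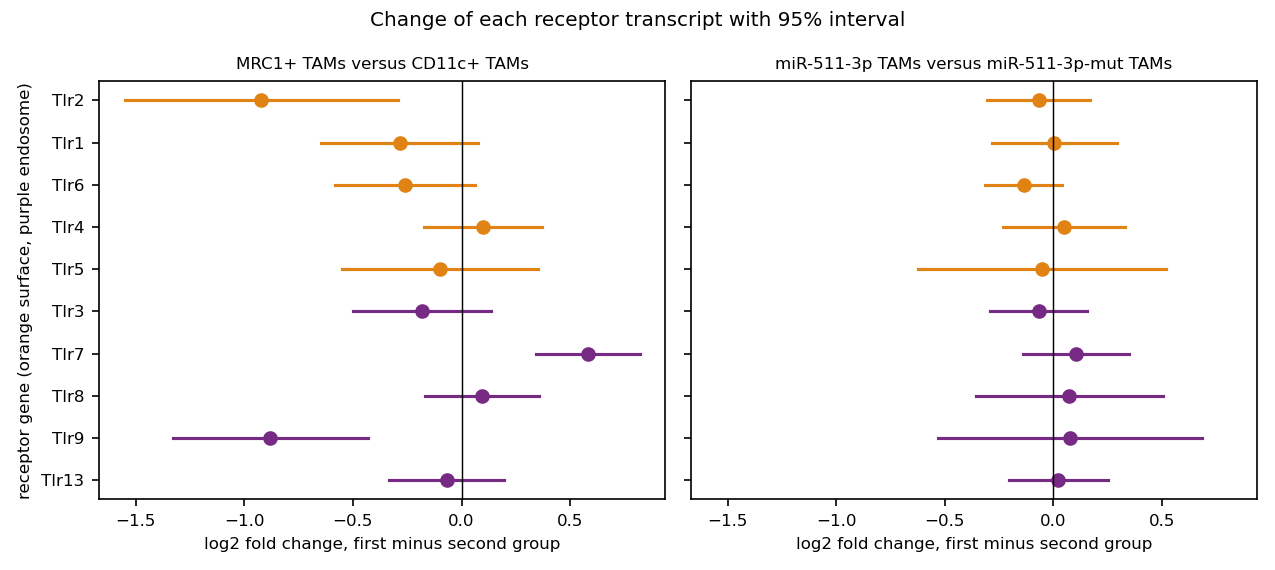
The x axis is the log2 fold change of each receptor transcript, with its 95% interval as a line, for MRC1+ minus CD11c+ TAMs (left) and miR-511-3p minus miR-511-3p-mut TAMs (right); surface receptors are orange and endosomal ones purple. On the left the intervals of Tlr2, Tlr7 and Tlr9 leave out 0, and on the right all 10 cross 0.

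Among the surface receptors, Tlr2 showed the widest difference. It stood at 236.5, 200.3 and 292.2 CPM in the MRC1+ and at 314.2, 393.1 and 678.5 CPM in the CD11c+ libraries. The groups did not overlap, but the CD11c+ libraries spread more than 2-fold, with the third far above the other two. The log2 fold change was -0.92 ± 0.27 (n = 3 per group; adjusted p = 0.0538, edgeR), with a 95% interval of -1.55 to -0.29. Tlr2 passed in 5 of 13 alternatives, among them the fit blocked on replicate number (adjusted p = 0.0145, edgeR), DESeq2 (adjusted p = 0.00169) and the fit without the first CD11c+ library (adjusted p = 0.00700, edgeR). Without the third CD11c+ library the log2 fold change was -0.53 (adjusted p = 0.0944, edgeR). Over all 13 the adjusted p ran from 0.00169 to 0.169 (edgeR and DESeq2).

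The partners of Tlr2 gave no call. Tlr1 stood at 68.6, 65.7 and 58.9 CPM in the MRC1+ and at 63.8, 98.9 and 73.0 CPM in the CD11c+ libraries, and the groups overlapped. Its log2 fold change was -0.29 ± 0.16 (adjusted p = 0.245, edgeR), and without the first CD11c+ library it was -0.42 (adjusted p = 0.0456, edgeR). Tlr6 stood at 23.4, 23.0 and 20.2 against 22.6, 31.9 and 25.4 CPM, a log2 fold change of -0.26 ± 0.14 (adjusted p = 0.236, edgeR). Per kb the ratio of Tlr1 to Tlr6 was 3.17 to 3.27 in MRC1+ and 3.15 to 3.45 in CD11c+ TAMs. Neither length was corrected for the shared stretch shown above.

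Tlr4 and Tlr5 also gave no call. Tlr4 stood at 286.3, 238.6 and 232.0 CPM in the MRC1+ and at 251.5, 248.3 and 208.2 CPM in the CD11c+ libraries, a log2 fold change of 0.10 ± 0.12 (adjusted p = 0.604, edgeR) with a 95% interval of -0.17 to 0.37. Tlr5 stood at 15.4, 15.3 and 13.0 against 12.2, 20.6 and 13.9 CPM, a log2 fold change of -0.10 ± 0.20 (adjusted p = 0.763, edgeR) with an interval of -0.55 to 0.35. The groups overlapped for both genes.

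Outside the 10, Tlr11, which binds profilin of parasites, was rare, at 1.31, 0.656 and 0.291 CPM in the MRC1+ and 5.16, 3.36 and 3.45 CPM in the CD11c+ libraries. It fell by 2.42 on the log2 scale (SE 0.43; adjusted p = 0.00753, edgeR). Tlr12, its partner, stood at 6.17, 8.37 and 2.73 against 12.4, 20.6 and 6.89 CPM, with a log2 fold change of -1.22 ± 0.45 (adjusted p = 0.102, edgeR), and passed with the replicate block (adjusted p = 0.00301, edgeR).

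Per kb of exon, Tlr2 and Tlr13 had the highest means in all 4 groups. In MRC1+ TAMs Tlr2 stood at 80.6 ± 15.4 and Tlr13 at 67.2 ± 9.80 CPM per kb (SD, n = 3), and these libraries overlapped. Tlr4 (45.4 ± 5.33), Tlr7 (42.3 ± 5.29) and Tlr8 (38.9 ± 4.03) followed, each overlapping its neighbour. Tlr1 (19.2 ± 1.48) and Tlr6 (5.96 ± 0.464) were each apart from the next, and Tlr3 (3.54 ± 0.440), Tlr5 (3.04 ± 0.289) and Tlr9 (2.62 ± 0.205) were lowest, with overlap between neighbours. Neighbours in this order are said to differ only where their libraries did not overlap, and no test was made.

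In CD11c+ TAMs Tlr2 stood at 153 ± 63.6, Tlr13 at 70.6 ± 3.01, Tlr4 at 42.5 ± 4.35 and Tlr8 at 36.5 ± 4.00 CPM per kb. Tlr2 and Tlr13 were each apart from the next, and Tlr4 and Tlr8 overlapped. Tlr7 (28.3 ± 0.574) came next, overlapping Tlr1 (23.5 ± 5.44), and lay below every Tlr8 library. Tlr6 (7.15 ± 1.28), Tlr9 (4.81 ± 1.34), Tlr3 (4.01 ± 0.528) and Tlr5 (3.25 ± 0.928) each overlapped the next. The lowest mean was that of Tlr9 in MRC1+ and of Tlr5 in CD11c+ TAMs, but each overlapped its neighbour in the order.

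Summed over the 10 receptors the level was 308.9 ± 26.7 CPM per kb in MRC1+ and 374 ± 53.5 in CD11c+ TAMs (SD, n = 3). The ranges, 283 to 336 and 322 to 429, overlapped. Endosomal receptors made up 50% ± 3.08 of that sum in MRC1+ TAMs (46.5% to 52.4%) and 39.2% ± 6.999 in CD11c+ TAMs (31.4% to 45.0%), without overlap. Tlr2 alone took 26.1% ± 4.68 and 40.02% ± 10.9, and its ranges, 23.3% to 31.5% and 32.4% to 52.5%, did not overlap. Tlr7 took 13.7% ± 0.539 and 7.68% ± 1.13. As parts of 1 sum these shares are not independent of each other, and no test was made on them. A higher Tlr2 level lowers every other share. The endosomal share therefore holds the Tlr2 difference again and is not a separate result.

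**Figure D3:**
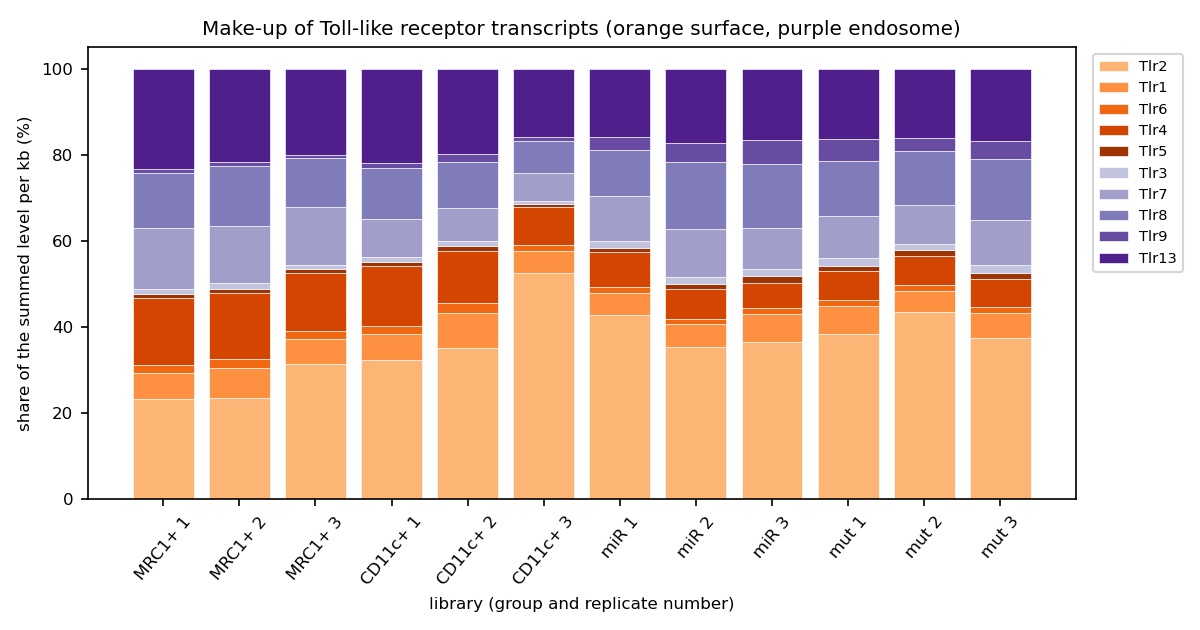
Each bar is 1 library, named by group and replicate number, and the y axis is the share of each receptor in the summed level per kb (%), surface receptors in orange and endosomal ones in purple. The endosomal part is 46.5% to 52.4% in MRC1+ and 31.4% to 45.0% in CD11c+ libraries, and the third CD11c+ library has the largest share of Tlr2.

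Under miR-511-3p no receptor was called against the mutated form, beside 0% of all 14054 genes tested (edgeR), and all 10 overlapped between the groups, beside 6.25% of all genes that did not, 2.42% higher and 3.84% lower. At an unadjusted p under 0.05 edgeR gave 343 genes, 2.44%, and no receptor among them. DESeq2 and the fit of all 12 libraries called 1 gene each, Mir511, and the replicate block called 1, Hspg2. Mir511, the gene of the hairpin, stood at 2.97, 2.47 and 3.16 CPM in the miR-511-3p and 0.112, 0.401 and 0.221 CPM in the mutated libraries. These were low counts, 63 to 80 against 3 to 9 reads. The adjusted p of Mir511 was 0.482 and its unadjusted p was 3.43e-05, the lowest of all genes (edgeR). The labels do not give the mutated hairpin's sequence, so whether its reads align to Mir511 is unknown.

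Tlr4, which holds the seed match, stood at 212.8, 220.1 and 163.5 CPM in the miR-511-3p and at 188.6, 204.4 and 186.7 CPM in the mutated libraries. The third miR-511-3p library was the lowest of the 6 and the other two were the highest. The log2 fold change was 0.05 ± 0.12 with a 95% interval of -0.23 to 0.33 (adjusted p = 0.99988, edgeR).

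Among the endosomal receptors, Tlr9 and Tlr8 had the widest intervals between the overexpression groups. Tlr9 stood at 48.6, 87.3 and 99.6 CPM against 88.1, 60.1 and 75.5 CPM, a log2 fold change of 0.08 with an interval of -0.53 to 0.69. Tlr8 stood at 180.2, 310.7 and 272.3 against 224.8, 246.6 and 255.9 CPM, with an interval of -0.36 to 0.51. The first miR-511-3p library was the lowest of both groups for Tlr3, Tlr8, Tlr9 and Tlr13, and also for the surface receptors Tlr1 and Tlr5. Tlr7 stood at 202.5, 252.1 and 202.4 against 196.7, 199.0 and 217.8 CPM (interval -0.14 to 0.35), Tlr13 at 323.5, 416.6 and 366.1 against 349.6, 376.4 and 365.6 CPM (interval -0.20 to 0.25) and Tlr3 at 40.6, 47.6 and 44.0 against 50.8, 41.5 and 46.7 CPM (interval -0.29 to 0.16).

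Of the surface receptors, Tlr2 stood at 607.1, 596.8 and 564.8 CPM under miR-511-3p and 574.5, 715.5 and 571.4 CPM under the mutated form, with an interval of -0.30 to 0.17. Tlr6 stood at 22.8, 22.6 and 25.2 against 25.5, 27.8 and 24.7 CPM, a log2 fold change of -0.14 ± 0.08 (unadjusted p = 0.112, the lowest of the 10 in edgeR). Tlr1 stood at 81.5, 98.8 and 113.5 against 104.5, 88.6 and 100.5 CPM (interval -0.28 to 0.29). Tlr5 stood at 19.9, 32.5 and 39.4 against 25.8, 36.1 and 33.7 CPM (interval -0.62 to 0.52). Fold differences of up to 1.61, the outer bound for Tlr9, thus lie within the 95% intervals.

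Between the sorted and the overexpression libraries 4 receptors did not overlap, all endosomal and all higher in the 6 overexpression libraries, beside 24.1% of genes higher and 24.4% lower in the same sense. Tlr9 ranged from 8.43 to 22.1 CPM in the sorted and from 48.6 to 99.6 CPM in the overexpression libraries. Tlr3 ranged from 15.9 to 22.7 against 40.6 to 50.8 CPM and Tlr8 from 115 to 154 against 180 to 310.7 CPM. Tlr7 was almost touching, at 114 to 196 against 197 to 252 CPM. Per kb the ratio of Tlr7 to Tlr9 was 1.73 to 3.55 in the miR-511-3p and 1.90 to 2.82 in the mutated libraries. The sort gate, the overexpression and the preparation of the libraries cannot be told apart here, and no test was made. The share of reads outside genes also differed, with 19.7% to 26.6% in sorted libraries and 7.64% to 10.4% in overexpression libraries. Macrophage markers summed to 9080 to 10483 CPM in the overexpression and 4446 to 6444 CPM in the sorted libraries. B cell markers summed to 8.31 to 18.2 against 6.04 to 7.12 CPM, and both lists were higher without overlap. Other lists were lower without overlap. Epithelial and carcinoma markers summed to 18.3 to 47.0 against 118 to 209 CPM. Mast cell and eosinophil markers summed to 7.44 to 15.8 against 39.3 to 82.7 CPM. Type 2 and general dendritic cell markers summed to 21.2 to 37.9 against 41.0 to 577 CPM. Plasmacytoid markers summed to 6.34 to 14.3 against 12.3 to 22.7 CPM. Most of this was Runx2, with means of 6.71 CPM under miR-511-3p and 9.78 CPM under the mutated form. Siglech, which defines plasmacytoid cells, was at most 0.158 CPM in the overexpression libraries. The part of these cells in the receptor levels was not tested.

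In the overexpression groups the order per kb was alike at the top. Tlr2 stood at 196 ± 7.32 under miR-511-3p and 206 ± 27.3 CPM per kb under the mutated form, apart from the next in both. Tlr13 (85.7 ± 10.8 and 84.5 ± 3.14), Tlr8 (70.9 ± 18.7 and 67.6 ± 4.45), Tlr7 (53.7 ± 7.02 and 50.1 ± 2.84), Tlr4 (35.8 ± 5.54 and 34.8 ± 1.75), Tlr1 (29.3 ± 4.78 and 29.2 ± 2.47), Tlr9 (22.6 ± 7.66 and 21.4 ± 4.02) and Tlr3 (8.46 ± 0.673 and 8.90 ± 0.902) followed in that order. Under miR-511-3p, Tlr13 overlapped Tlr8, Tlr8 overlapped Tlr7, Tlr4 overlapped Tlr1 and Tlr1 overlapped Tlr9. Tlr5 (6.39 ± 2.07 and 6.65 ± 1.13) and Tlr6 (6.32 ± 0.386 and 6.98 ± 0.420) were the lowest, overlapping each other. The endosomal share was 46.7% ± 4.32 and 45.1% ± 2.68, between those of the sorted groups, and overlapped between miR-511-3p and its mutated form.

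The machinery around the receptors was described from lists of the pathway, beside the same background of 6.91% higher and 9.71% lower genes. Counts with the replicate block stand beside 7.24% higher and 10.6% lower genes in that fit. Of 15 co-receptors, chaperones and processing proteases, none was higher and 3 were lower in MRC1+ TAMs, with a list median of -0.28 on the log2 scale. The 3 were Slc15a3, an endolysosomal transporter (-1.23 ± 0.21, adjusted p = 0.00679, edgeR), Ly86, the MD-1 partner of Cd180 (-0.62 ± 0.11, adjusted p = 0.00635, edgeR), and Cd180 itself (-0.43 ± 0.10, adjusted p = 0.0274, edgeR). Without 1 library at a time, Cd180 lost its call in 4 of 6 fits, and Slc15a3 and Ly86 in none. Unc93b1 and Cd14, the lipopolysaccharide co-receptor, are given for their role and were chosen after their values were seen. Unc93b1 stood at 318 ± 18.2 against 338 ± 42.6 CPM (log2 fold change -0.09, adjusted p = 0.631, edgeR), and Cd14 had a log2 fold change of -0.82 ± 0.34 (adjusted p = 0.134, edgeR; adjusted p = 0.0404 with the replicate block). With the replicate block 4 of the list were lower and 1 was higher, the lipid scavenger receptor Cd36 (log2 fold change 0.51, adjusted p = 0.0100 with the block and 0.0896 without it, edgeR).

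Of 24 adaptors and signalling kinases, none was higher and 7 were lower, with a median of -0.19. Myd88 stood at 56.2 ± 1.498 CPM in MRC1+ and 91.8 ± 15.5 CPM in CD11c+ TAMs and fell by 0.70 on the log2 scale (adjusted p = 0.00805, edgeR). The transcription factor Irf5 stood at 139 ± 1.87 against 256 ± 37.3 CPM and fell by 0.88 (adjusted p = 0.00177, edgeR). Irf7, Irak2, Pik3ap1, Ikbkb and Chuk were the others, with falls from 0.36 (Chuk) to 0.99 (Irf7). Without 1 library at a time, Chuk and Pik3ap1 lost the call in 5 of 6 fits, Ikbkb in 4, and Irak2 and Irf7 in 3. Myd88 and Irf5 lost it in none. With the replicate block 9 were lower, and Traf6, a ubiquitin ligase (adjusted p = 0.0322, edgeR), and Peli1, another (adjusted p = 0.0365, edgeR), were among them. Cd36, Traf6 and Peli1 were picked out with their values already seen. The adaptors of the pathway that does not use Myd88, Ticam1 and Ticam2, had log2 fold changes of -0.21 and -0.05 and gave no call; they too were named after their values were seen. Of 11 tested negative regulators 2 were lower, Socs1 (-1.14 ± 0.31) and Cyld (-0.45 ± 0.08), with a median of -0.39, and with the replicate block 4 were lower.

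Of 21 tested transcripts that Toll-like receptor signalling induces, 2 were higher and 4 lower, with a median of -0.87. Saa3, an acute phase protein (2.40 ± 0.43, adjusted p = 0.00812, edgeR), and the scavenger receptor Marco (1.202 ± 0.29, adjusted p = 0.0255, edgeR) were higher. Il12b (-3.88 ± 0.39, adjusted p = 0.000533, edgeR), Il1b (-1.65 ± 0.31, adjusted p = 0.00970, edgeR), Ptgs2 (-1.63 ± 0.46) and Nos2 (-0.43 ± 0.12) were lower; they encode cytokine subunits and enzymes of inflammation. With the replicate block 3 of the list were higher and 13 lower, beside 7.24% and 10.6% of all genes in that fit.

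The other pattern recognition receptors had more members called than any of these lists. Of 19, none was higher and 11 were lower, with a median of -0.61. The lectin receptor Clec7a, which binds fungal beta-glucan, stood at 210 ± 29.6 CPM in MRC1+ and 1090 ± 155 CPM in CD11c+ TAMs and fell by 2.38 (adjusted p = 7.25e-05, edgeR). Nod2, a sensor of bacterial cell wall, stood at 27.8 ± 4.30 against 114 ± 45.4 CPM and fell by 2.03 (adjusted p = 0.00275, edgeR). Nlrp1b, Naip2, Naip5, Nod1, Dhx58, Tmem173, Aim2, Zbp1 and Clec4n fell by 0.45 to 0.81. Without the first CD11c+ library the lower calls were 7 of 15 co-receptors, 12 of 24 adaptors, 4 of 11 negative regulators, 8 of 21 induced transcripts and 17 of 19 other receptors, beside 14.8% of all genes in that fit. Without any 1 of the other 5 libraries they were 2 to 3, 2 to 5, 1, 2 to 3 and 4 to 8, beside 5.43% to 6.93%. The dendritic cell and monocyte markers given above move with all of these lists, and their part in them was not tested. Under miR-511-3p none of these lists had a member called, and their medians lay between 0.01 and 0.07.

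**Figure D4:**
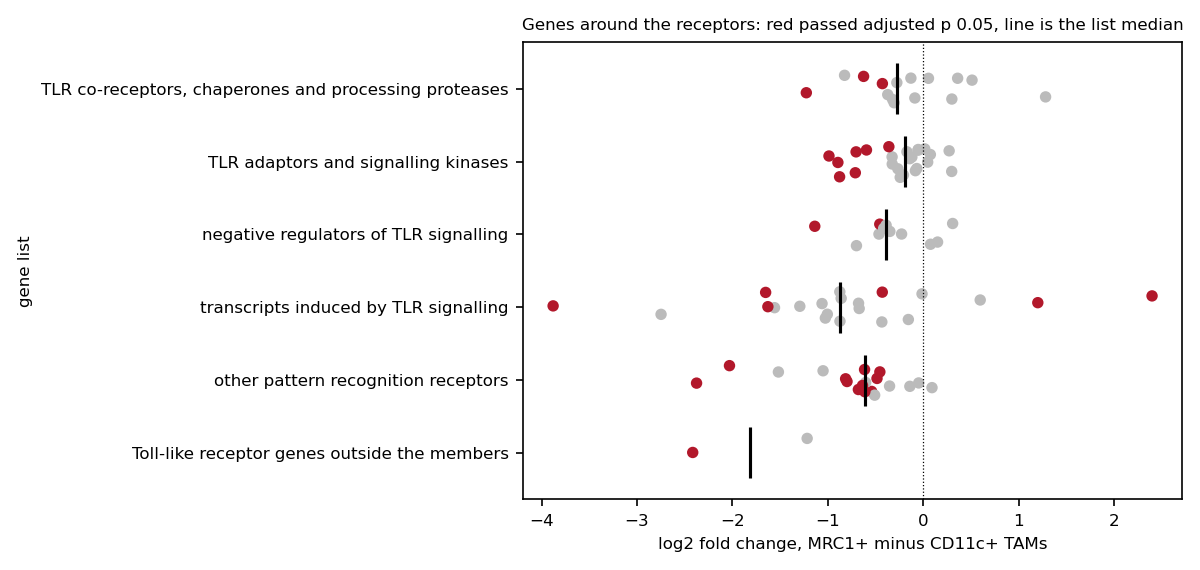
Each point is 1 tested gene of a list (y axis), placed by its log2 fold change in MRC1+ minus CD11c+ TAMs (x axis); red points passed an adjusted p of 0.05 and the line is the list median. The medians lie below 0 in every list, and the 11 called other pattern recognition receptors are all on the lower side.

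The genes whose levels ran most like those of the called receptors were taken over the 12 libraries, on log2 CPM centred within the sorted and within the overexpression libraries, among 9457 genes of at least 10 CPM. Values of 1 library share its depth and preparation, and the sorted comparison itself enters the measure, so these are descriptions. For Tlr7 they were C3ar1, the receptor of complement C3a (Pearson r = 0.958), Cd93 (r = 0.943) and Hsbp1 (r = 0.936). C3ar1 was itself higher in MRC1+ TAMs (log2 fold change 0.60, adjusted p = 0.00703, edgeR), as were Cd93 (0.57, adjusted p = 0.0195, edgeR) and Hsbp1 (0.43, adjusted p = 0.0151, edgeR). For Tlr9 they were Trim14 (r = 0.947), Ighm, the immunoglobulin mu chain (r = 0.939), and Trim30a (r = 0.939). Of these, Trim30a was lower in MRC1+ TAMs (-0.51, adjusted p = 0.0213, edgeR), while Ighm (-0.55, adjusted p = 0.0549, edgeR) and Trim14 (-0.40, adjusted p = 0.123, edgeR) gave no call.

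**Figure D5:**
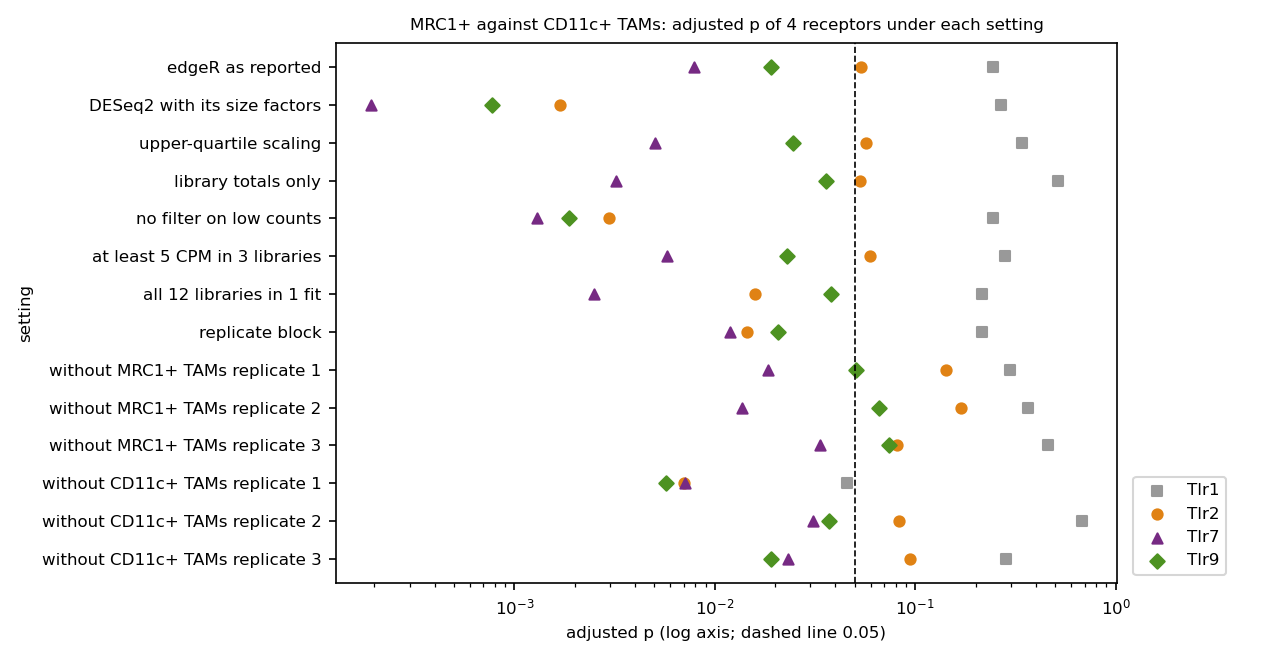
The x axis, on a log scale, is the adjusted p of Tlr1, Tlr2, Tlr7 and Tlr9 for MRC1+ against CD11c+ TAMs under each setting (y axis), with 0.05 as a dashed line. Tlr7 lies left of the line in every setting shown, Tlr9 crosses it without any 1 MRC1+ library, and Tlr2 lies on both sides.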

How the data were processed

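RNA was sequenced after an Illumina TruSeq RNA preparation, per the labels' protocols. The authors deposited raw counts of reads per Ensembl gene, 1 table per library. TopHat 1.2.0, Bowtie, SAMtools 0.1.12a and HTSeq are listed in the submitters' processing notes, with the builds mm9 and NCBIM37. No source used here states the counting mode or strand. The 5 summary rows of a library, which name no gene, were left out. Reads over no gene were 7.64% to 26.6% and reads not aligned uniquely 12.8% to 20.1%. Symbols and exon lengths came from GENCODE M21 (GRCm38, a later build), matching 31819 genes. Samples were grouped by the labels.

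The 10 receptors and all lists were chosen with earlier results of these data known. All 10 are named, with the called or lowest-p members of each list and, for called receptors, the 3 genes most like them. Comparisons were made within their 6 libraries by quasi-likelihood tests in edgeR 4.0.16 (R 4.3.3), with TMM, filterByExpr and Benjamini-Hochberg adjustment over all genes. SE is the fold change over the root of F, and intervals use the moderated degrees of freedom. CPM use TMM factors of all 12 libraries, so ratios of means differ slightly from fitted folds. Alternatives were DESeq2 1.42.0, other scalings and filters, a fit of all 12 libraries, a replicate block and leaving out each library. Only the quasi-likelihood step was tried on simulated counts, without pairs and with the same spread for all genes. Libraries of a group differed beyond sampling noise (chi-square per degree of freedom 10.0 to 36.4).

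Same-numbered libraries deviated together, with correlations of 0.104, 0.337 and 0.250 in the sorted and 0.147, 0.258 and 0.462 in the overexpression groups. Each exceeded 0.1, the limit set for treating same-numbered libraries as pairs, which the labels do not state. The main fits ignored these pairs, and only the replicate block used them. Tlr2 and Tlr12 passed with the block and not in the main sorted fit. For the first miR-511-3p library the correlation with the second mutated library, 0.166, exceeded that with the first, 0.147.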

Additional observations from a re-analysis of the deposited data

How the results depend on the processing

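In MRC1+ against CD11c+ TAMs, 2 receptors were lower with DESeq2, with all 12 libraries fitted together, with no filter on low counts and with the replicate block, each time Tlr2 and Tlr9, and without 1 library at a time the number lower was 0 to 3. The replicate block changed no other call of the 10 receptors; it gave an adjusted p (edgeR) of 0.0119 for Tlr7, 0.0208 for Tlr9 and 0.0145 for Tlr2. Library totals alone moved the median of all genes from 0.01 to 0.14 on the log2 scale, and with them Tlr5 and Tlr13 turned to 0.0263 and 0.0544, both below that median. The same scaling put the mean CPM of Tlr1, Tlr6 and Tlr9 in MRC1+ TAMs at 70.4, 24.3 and 9.97, of Tlr2 in miR-511-3p TAMs at 562 and of Tlr13 in miR-511-3p-mut TAMs at 349, each more than 1 SD from the value with TMM. Without division by exon length the endosomal share in miR-511-3p-mut TAMs was 49.1%. Without 1 library at a time the log2 fold change of Tlr5 ran from -0.26 to 0.16.

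Under miR-511-3p, Tlr1 turned to -0.00235 with upper-quartile scaling, -0.00893 with library totals and -0.00184 with the replicate block. Without 1 library at a time the log2 fold changes ran from -0.11 to 0.12 for Tlr1, -0.13 to 0.0455 for Tlr2, -0.0308 to 0.17 for Tlr4, -0.27 to 0.18 for Tlr5, -0.00926 to 0.16 for Tlr7, -0.10 to 0.27 for Tlr8, -0.12 to 0.33 for Tlr9 and -0.0726 to 0.11 for Tlr13, with no call. Over all genes, calls in the sorted comparison were 2597, against 1270 without the second MRC1+ library, 1279 without the third, 1490 without the second CD11c+ library and 4707 without the first. The cause of these shifts was not tested. The intervals given are the precision that 3 libraries a group allow.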
